A study of Mus musculus with 8 samples.

Results

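The genes described here are 4 keratin genes of simple epithelium (Krt7, Krt8, Krt18 and Krt19) and 4 claudin genes (Cldn3, Cldn4, Cldn6 and Cldn7). They were taken by symbol from the gene tables of 8 mouse RNA sequencing libraries, where each symbol matched 1 entry of 38754 on the chromosomes. The list was chosen by the FPKM of Krt8 and Krt18, which differed between stem cell lines of neural and of intestinal origin, and the question was whether genes of cell junctions followed them. All 8 were among the 16989 genes tested, which reached FPKM 1 in at least 1 library. FPKM is the number of sequenced fragments scaled by the length of the transcript and by the mapped fragments of the library, so levels of different genes can be set side by side.

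Keratins build the intermediate filaments of epithelial cells from pairs of 1 type I and 1 type II protein. Krt8 (type II) and Krt18 (type I) are the pair of simple, single-layered epithelia and the first keratins made in the mouse embryo. Claudins are membrane proteins with several spans that seal the space between neighbouring epithelial cells in tight junctions, where they bind scaffold proteins such as the one encoded by Tjp1. Mouse embryonic stem cells grow as packed colonies held together by E-cadherin and express several epithelial junction genes.

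The term CiPSC stands for pluripotent stem cells induced from somatic cells by chemical compounds alone; the labels leave the compounds to the study's methods and do not list them. The CiPSC libraries were NSC-CiPSC lines 1, 2 and 3, whose starting cells were neural stem cells, and IEC-CiPSC lines 10 and 13, whose starting cells were epithelial cells of the small intestine. Single libraries came from neural stem cells cultured to passage 2 (NSC), from primary cells of the small intestinal epithelium (IEC) and from embryonic stem cells of the R1 line (ESC). Both source populations came from embryos at E13.5. The strain of NSC-CiPSC line 1 is C57BL/6J-Tg(GOFGFP)12Imeg/RbrcxICR, and the other lines and both source libraries carry the same form with another number, between 11 and 17, before Imeg. That number rises by 1 from library to library in the order of the labels and may be an entry error, so no difference of strain between these libraries is read from it. ESC is 129X1 x 129S1, so every comparison with ESC is also one between strains. Since no label ties a line to an animal, the spread behind each p-value is that between these lines and may be technical.

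Depth was estimated at 8820000 to 10120000 fragments a library. Correlations of log2(FPKM + 1) were 0.969 to 0.987 among NSC-CiPSC lines, with line 1 the farthest from the others, and 0.989 between the IEC-CiPSC lines. All 8 pluripotency markers reached FPKM 10 in every CiPSC line. The IEC library had 4 of 15 intestinal epithelium markers at FPKM 10, with Cdx2 at 0.0913 FPKM and Cdh17 at 0.604 FPKM. It also had 8 of 8 mesothelium markers, 10 of 10 fibroblast markers, 6 of 6 smooth muscle markers, 6 of 6 liver markers, 6 of 7 pancreas markers and 5 of 6 leukocyte markers at FPKM 10. Markers of several other tissues were thus present in that library, and in bulk RNA fewer cells of a type and less RNA per cell cannot be told apart. Markers of trophectoderm and extraembryonic endoderm, lineages that use Krt8 and Krt18 in the early mouse embryo, were read in the lines too. The summed level of 10 trophectoderm markers was 47.7 to 61.3 FPKM in NSC-CiPSC lines and 50.1 to 57.0 FPKM in IEC-CiPSC lines. The largest single part of that sum in each line is Tfap2c, at 30.3 to 45.6 FPKM in NSC-CiPSC lines and 22.5 and 24.3 FPKM in IEC-CiPSC lines. The sum hides markers that run the other way. Every NSC-CiPSC line was lower than both IEC-CiPSC lines for 4 of the 10: Eomes (1.26 to 2.20 FPKM in NSC-CiPSC lines, 3.05 and 3.57 FPKM in IEC-CiPSC lines), Gata3 (0.568 to 1.26 FPKM and 2.90 and 3.69 FPKM), Ascl2 (2.22 to 4.14 FPKM and 6.15 and 7.45 FPKM) and Tead4 (6.27 to 9.22 FPKM and 13.1 and 15.0 FPKM). Cdx2 was at 0.0462 to 0.565 FPKM in NSC-CiPSC lines and at most 0.0909 FPKM in IEC-CiPSC lines, and Elf5 was listed at 0 in all lines but IEC-CiPSC line 13 (0.210 FPKM). The summed level of 13 extraembryonic endoderm markers was 29.1 to 31.7 FPKM in NSC-CiPSC lines and 28.1 to 33.8 FPKM in IEC-CiPSC lines. This sum also hides markers that ran both ways. Lamb1 (15.0 to 15.6 FPKM in NSC-CiPSC lines, 11.9 and 9.17 FPKM in IEC-CiPSC lines), Dab2 and Pdgfra were higher in every NSC-CiPSC line. Col4a1 (6.18 to 6.99 FPKM and 10.6 and 9.28 FPKM), Lama1 and Hnf4a were lower. How often all genes separate in this way was not counted, so nothing is read from how many of these markers did. The part of trophectoderm or extraembryonic endoderm cells in the member differences was not tested.

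The members lie in small clusters. In the mm10 coordinates of the files, Krt8 (chr15:101996711-102004342, minus strand) and Krt18 (chr15:102028216-102032026, plus strand) are 23873 bases apart, and Krt7 lies on the same chromosome at chr15:101411043-101430313. Cldn4 (chr5:134945126-134946934, minus strand) and Cldn3 (chr5:134986214-134987476, plus strand) are 39279 bases apart. Cldn6 lies at chr17:23679365-23682446, 137 bases from Cldn9, Cldn7 at chr11:69964779-69967885 and Krt19 at chr11:100140810-100148665. The 250 bases before the RefSeq start of transcription (GRCm38.p6) are printed for the keratin pair and for 3 claudins whose order between the origins differed, since neighbours or partners moved together or apart. Capitals mark matches on either strand to the AP-1 site TGANTCA, the E-box CAGGTG and the cyclic AMP response element TGACGTCA; no match overlaps another.
Krt8 (chr15:102004343-102004592, minus strand): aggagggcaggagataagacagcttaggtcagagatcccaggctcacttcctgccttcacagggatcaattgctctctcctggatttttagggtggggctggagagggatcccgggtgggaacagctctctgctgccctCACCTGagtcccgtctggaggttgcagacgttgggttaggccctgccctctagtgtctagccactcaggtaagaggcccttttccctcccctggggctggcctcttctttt
Krt18 (chr15:102027966-102028215, plus strand): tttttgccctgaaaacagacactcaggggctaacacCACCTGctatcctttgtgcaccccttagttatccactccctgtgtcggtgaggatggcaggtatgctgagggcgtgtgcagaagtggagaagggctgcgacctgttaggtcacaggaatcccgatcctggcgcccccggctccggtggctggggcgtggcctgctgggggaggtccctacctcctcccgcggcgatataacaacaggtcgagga
Cldn3 (chr5:134985964-134986213, plus strand): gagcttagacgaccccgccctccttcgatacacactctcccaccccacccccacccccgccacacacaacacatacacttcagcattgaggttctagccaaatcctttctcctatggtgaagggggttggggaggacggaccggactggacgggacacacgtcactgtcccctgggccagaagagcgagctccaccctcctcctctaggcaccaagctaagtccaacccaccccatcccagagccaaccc
Cldn4 (chr5:134946935-134947184, minus strand): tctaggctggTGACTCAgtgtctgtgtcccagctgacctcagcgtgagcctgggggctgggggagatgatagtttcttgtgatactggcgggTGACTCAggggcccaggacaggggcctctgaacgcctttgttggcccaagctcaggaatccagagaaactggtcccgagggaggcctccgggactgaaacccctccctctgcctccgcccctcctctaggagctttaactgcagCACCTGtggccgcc
Cldn6 (chr17:23679115-23679364, plus strand): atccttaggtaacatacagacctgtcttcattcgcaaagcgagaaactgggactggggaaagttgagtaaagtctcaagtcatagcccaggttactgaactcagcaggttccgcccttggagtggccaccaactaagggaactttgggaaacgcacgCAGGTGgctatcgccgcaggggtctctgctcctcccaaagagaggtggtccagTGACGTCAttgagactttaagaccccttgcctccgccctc
Of 32817 RefSeq windows of the same length, 6.8% held TGANTCA, 17.2% held CAGGTG and 1.5% held TGACGTCA. Krt8 had an E-box at -111 and Krt18 one at -214, counted from the start of transcription. Cldn4 had AP-1 letters at -240 and -158 and an E-box at -14, whereas its neighbour Cldn3 held none of the 3 motifs. Cldn6 had an E-box at -93 and the cyclic AMP letters at -40. Of the 8 members 7 were in the RefSeq table. Krt7 had an E-box at -44, and the second of 2 windows of Cldn7 held E-boxes at -97 and -57 and the cyclic AMP letters at -38. A match describes the letters alone, and GENCODE M21 places the starts of 4 members upstream of RefSeq, by 1360 bases for Krt7, 140 for Krt8, 116 for Cldn6 and 36 for Krt18, while the second Cldn7 window belongs to a start 642 bases downstream of the GENCODE one.

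Krt8 and Krt18 had nearly equal levels in each NSC-CiPSC line and were lower in IEC-CiPSC lines. Krt8 had 50.2, 28.0 and 23.0 FPKM in NSC-CiPSC lines 1, 2 and 3, 4.69 and 4.09 FPKM in IEC-CiPSC lines 10 and 13, 0.0635 FPKM in NSC, 58.5 FPKM in IEC and 10.0 FPKM in ESC. Krt18 had 52.1, 29.6 and 24.1 FPKM in NSC-CiPSC lines 1, 2 and 3, 6.14 and 4.0 FPKM in IEC-CiPSC lines 10 and 13, 53.7 FPKM in IEC and 5.16 FPKM in ESC, and was listed at 0 in NSC. The lines of the 2 origins did not overlap for either gene, and NSC-CiPSC line 1 was the highest of the lines for both. Means were 7.68 times as high for Krt8 (33.7 ± 14.5 FPKM in NSC-CiPSC, SD, n = 3, and 4.39 ± 0.425 FPKM in IEC-CiPSC, SD, n = 2) and 6.96 times as high for Krt18 (35.3 ± 14.9 FPKM in NSC-CiPSC and 5.07 ± 1.51 FPKM in IEC-CiPSC). These values chose the list, so they are a description with no test. In order of level Krt8 ran from IEC through NSC-CiPSC, ESC and IEC-CiPSC to NSC. The estimate in IEC had a 95% interval of 54.8 to 62.2 FPKM for Krt8, above that of NSC-CiPSC line 1 (46.7 to 53.7 FPKM), while for Krt18 the intervals of IEC (49.6 to 57.8 FPKM) and line 1 (48.0 to 56.3 FPKM) overlapped; they cover the estimate within a library alone. GENCODE M21 also annotates a processed pseudogene of Krt8, and how shared reads were assigned is not given in the sources used here.

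The ratio of Krt8 to Krt18 was 0.963, 0.947 and 0.956 in NSC-CiPSC lines 1, 2 and 3, and 0.765 and 1.02 in IEC-CiPSC lines 10 and 13. It was 1.09 in IEC and 1.94 in ESC. In the lines and IEC the ratio thus stayed between 0.765 and 1.09 while Krt8 ranged from 4.09 to 58.5 FPKM, and ESC, with more Krt8 than Krt18, stood apart.

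Krt7 and Krt19, a type II and a type I keratin of ducts and simple epithelia, did not both follow the pair. Krt7 had 1.86, 3.33 and 0.903 FPKM in NSC-CiPSC lines 1, 2 and 3, 0.530 and 0.495 FPKM in IEC-CiPSC lines 10 and 13, 44.5 FPKM in IEC and 0.286 FPKM in ESC, and was listed at 0 in NSC. The lines did not overlap, but the Krt7 values rest on about 10.6 to 15.2 fragments in NSC-CiPSC lines and 3.7 to 4.6 in IEC-CiPSC lines, as implied by the deposited intervals. Krt19 had 3.19, 9.55 and 4.87 FPKM in NSC-CiPSC lines 1, 2 and 3, 7.22 and 5.68 FPKM in IEC-CiPSC lines 10 and 13, 26.5 FPKM in IEC and 1.28 FPKM in ESC, and was listed at 0 in NSC. For Krt19 the lines overlapped, and NSC-CiPSC line 1, the highest line for Krt8 and Krt18, was the lowest. The mean of Krt19 was 5.87 ± 3.30 FPKM in NSC-CiPSC (SD, n = 3) and 6.45 ± 1.09 FPKM in IEC-CiPSC (SD, n = 2), a ratio of 0.910; without line 1 the difference on the log2(FPKM + 1) scale went to 0.09 in place of -0.22.

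**Figure D1:**
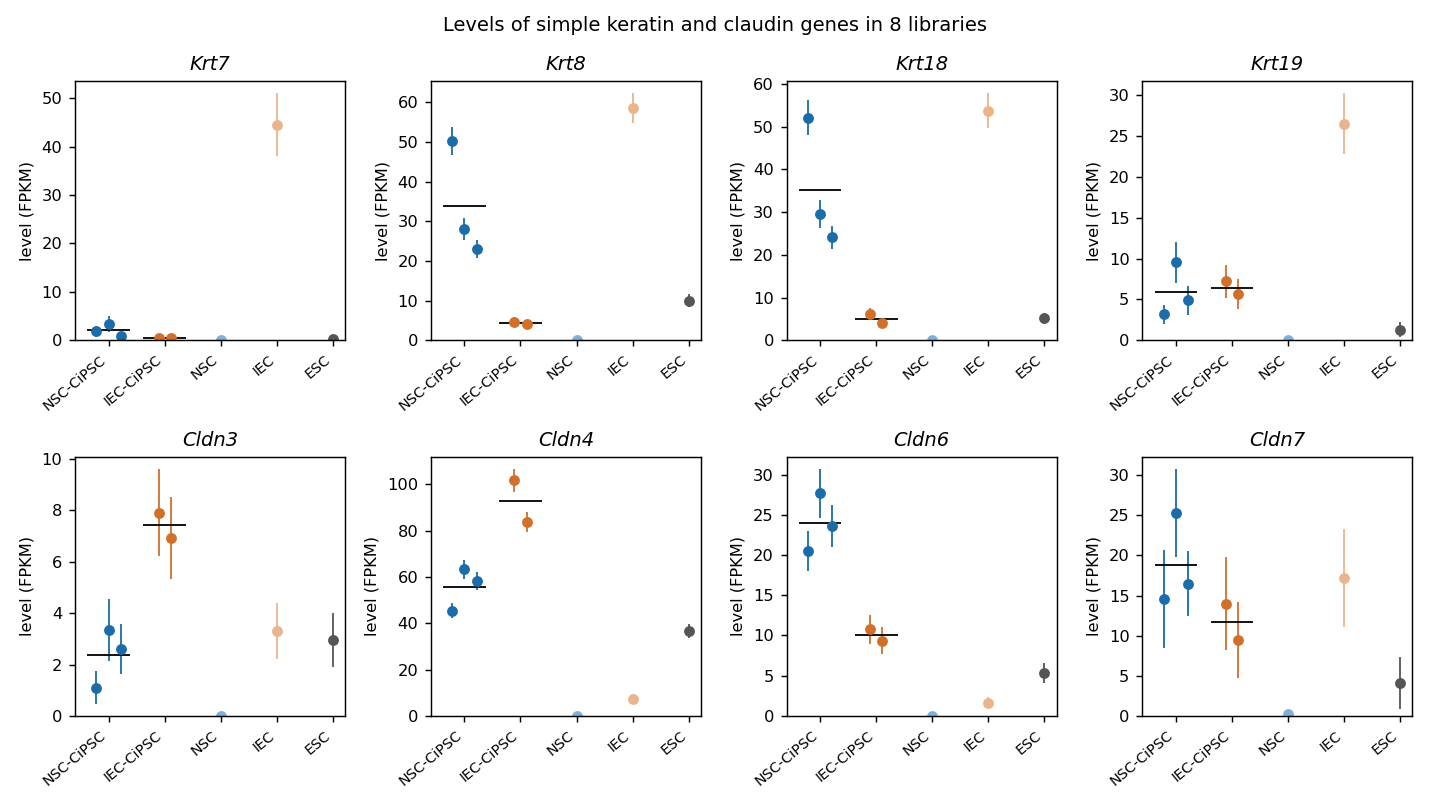
Level (FPKM, linear axis from 0) of the 4 keratin genes (upper row) and 4 claudin genes (lower row) in NSC-CiPSC lines, IEC-CiPSC lines, NSC, IEC and ESC. Each point is 1 library with the authors' 95% interval, and horizontal lines are means of lines; Krt8 sits at 23.0 to 50.2 FPKM in NSC-CiPSC lines and at 4.09 to 4.69 FPKM in IEC-CiPSC lines, while Cldn4 has the IEC-CiPSC lines on top.

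The claudins split between the origins. Cldn4 was the leading claudin in each line, and its product is known as a barrier claudin and, with that of Cldn3, as a receptor for a clostridial enterotoxin. Cldn4 had 45.5, 63.3 and 58.3 FPKM in NSC-CiPSC lines 1, 2 and 3, 102 and 83.8 FPKM in IEC-CiPSC lines 10 and 13, 7.26 FPKM in IEC and 36.7 FPKM in ESC, and was listed at 0 in NSC. Cldn3 had 1.10, 3.36 and 2.61 FPKM in NSC-CiPSC lines 1, 2 and 3, 7.91 and 6.92 FPKM in IEC-CiPSC lines 10 and 13, 3.29 FPKM in IEC and 2.96 FPKM in ESC, and was listed at 0 in NSC. Both neighbours were lower in every NSC-CiPSC line than in either IEC-CiPSC line, with ratios of means of 0.600 for Cldn4 (55.7 ± 9.16 FPKM in NSC-CiPSC and 92.8 ± 12.7 FPKM in IEC-CiPSC) and 0.318 for Cldn3 (2.36 ± 1.15 FPKM in NSC-CiPSC and 7.42 ± 0.702 FPKM in IEC-CiPSC). For Cldn3 the values of IEC and ESC fell within the range of the NSC-CiPSC lines, whereas for Cldn4 both lay below every line. Cldn3 overlaps Wbscr25, which stayed at or below 0.121 FPKM in every library. Other genes within 50 kb behaved differently, for example Abhd11, which had 34.1 to 36.5 FPKM in NSC-CiPSC lines and 22.9 and 25.8 FPKM in IEC-CiPSC lines.

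Cldn6 and Cldn7 went the other way. Cldn6, a claudin of embryonic epithelia and pluripotent cells, had 20.5, 27.7 and 23.6 FPKM in NSC-CiPSC lines 1, 2 and 3, 10.8 and 9.36 FPKM in IEC-CiPSC lines 10 and 13, 1.66 FPKM in IEC and 5.34 FPKM in ESC, and was listed at 0 in NSC. Every NSC-CiPSC line stood above both IEC-CiPSC lines, which stood above ESC, and the ratio of means between the origins was 2.38 (23.9 ± 3.58 FPKM in NSC-CiPSC and 10.1 ± 0.990 FPKM in IEC-CiPSC). Cldn9, next to it, ran in the other order, with 0.392 to 1.22 FPKM in NSC-CiPSC lines and 1.59 and 1.90 FPKM in IEC-CiPSC lines. Cldn7, whose product binds Epcam in epithelial membranes, had 14.6, 25.3 and 16.5 FPKM in NSC-CiPSC lines 1, 2 and 3, 14.0 and 9.46 FPKM in IEC-CiPSC lines 10 and 13, 0.224 FPKM in NSC, 17.2 FPKM in IEC and 4.15 FPKM in ESC. The line values of Cldn7 did not overlap, but its lowest NSC-CiPSC line had an interval of 8.53 to 20.7 FPKM and the highest IEC-CiPSC line one of 8.24 to 19.8 FPKM, so a difference between those libraries was not detectable at this depth. The gene Elp5 lies 336 bases away, and reads of overlapping or adjoining genes could not be told apart if strand was not used.

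Set in order, the log2(FPKM + 1) difference of NSC-CiPSC minus IEC-CiPSC was 2.61 for Krt8, 2.53 for Krt18, 1.17 for Cldn6, 0.92 for Krt7, 0.62 for Cldn7, -0.22 for Krt19, -0.73 for Cldn4 and -1.39 for Cldn3. So 5 of 8 were higher in NSC-CiPSC by these means. Over all genes tested 4.33% were called between the origins, 1.56% higher and 2.77% lower, where a call is an adjusted p under 0.05 (limma, Benjamini-Hochberg) and at least 2-fold on that scale. The list was chosen with this contrast known, so nothing is read from its count.

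The makeup of the claudins differed with origin more than their sum. The 4 claudins together had 81.8, 120 and 101 FPKM in NSC-CiPSC lines 1, 2 and 3, 134 and 110 FPKM in IEC-CiPSC lines 10 and 13, 29.4 FPKM in IEC and 49.2 FPKM in ESC, so the sums of the origins overlapped. Cldn4 made up 52.9% to 57.7% of that sum in NSC-CiPSC lines, 75.7% and 76.5% in IEC-CiPSC lines, 24.7% in IEC and 74.7% in ESC. Cldn6 made up 23.1% to 25.1% in NSC-CiPSC lines, 8.0% and 8.55% in IEC-CiPSC lines, 5.65% in IEC and 10.8% in ESC. By these shares the IEC-CiPSC lines were close to ESC and the NSC-CiPSC lines apart from it. The 4 keratins summed to 107, 70.5 and 52.9 FPKM in NSC-CiPSC lines 1, 2 and 3, 18.6 and 14.3 FPKM in IEC-CiPSC lines 10 and 13, 0.0635 FPKM in NSC, 183 FPKM in IEC and 16.7 FPKM in ESC.

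**Figure D2:**
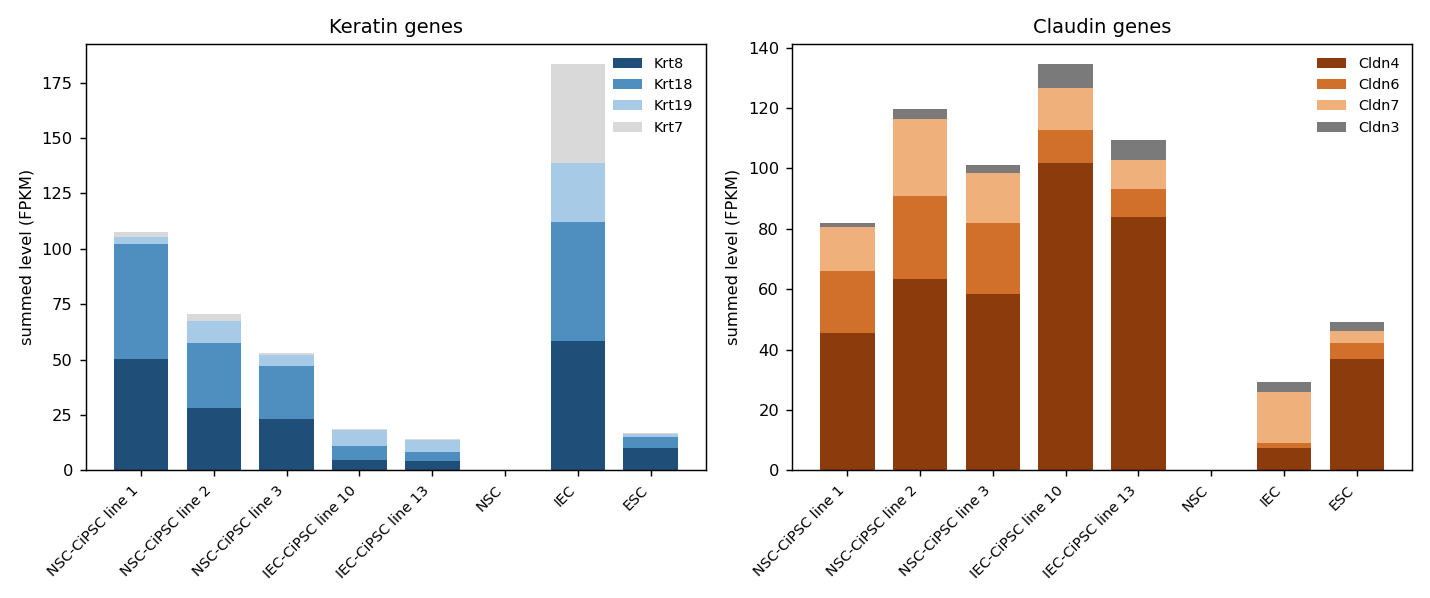
Stacked levels (FPKM, axis from 0) of the 4 keratin genes (left) and the 4 claudin genes (right), 1 bar per library, each colour a gene. The keratin bars are 52.9 to 107 FPKM high in NSC-CiPSC lines and 14.3 and 18.6 FPKM in IEC-CiPSC lines, whereas the claudin bars overlap and differ in their Cldn4 share.

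On the neural route, members that NSC lacked were present in all NSC-CiPSC lines. Of the 8 members 7 were called higher in NSC-CiPSC than in NSC and none lower, against 39% of all genes tested (18.3% higher and 20.8% lower). A gene listed at 0 in NSC passed the filter only through other groups, so the count is not support for a change of the list. The median log2(FPKM + 1) difference was 4.30 for the members and 0.03 for all genes. The limma adjusted p was 0.00212 for Krt8, 0.00236 for Krt18, 0.000264 for Cldn4, 0.000351 for Cldn6, 0.00235 for Cldn7, 0.0196 for Krt19 and 0.0383 for Cldn3. Each was higher in 3 of 3 lines. Krt7 was also higher in 3 of 3 lines but was not called (adjusted p = 0.0585). The calls of Krt19 and Cldn3 were lost when single lines were left out, with adjusted p up to 0.0574 for Krt19 and 0.101 for Cldn3.

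Other epithelial genes were called on the same route. Of 24 tight junction partner genes, 12 rose and 5 fell, against 18.3% higher and 20.8% lower over all genes. Epcam, an adhesion molecule of epithelial cells, was at 60.8 to 68.9 FPKM in NSC-CiPSC lines and 0.221 FPKM in NSC (adjusted p = 2.28e-05), and F11r, a junctional adhesion molecule, at 25.9 to 30.6 FPKM in NSC-CiPSC lines and 0.921 FPKM in NSC (adjusted p = 0.000143). Tjp1, a junction scaffold gene, fell to 23.1 to 25.5 FPKM in NSC-CiPSC lines, against 50.1 FPKM in NSC (adjusted p = 0.00144). Cdh1, which encodes E-cadherin, was at 69.5 to 85.5 FPKM in NSC-CiPSC lines and 0.203 FPKM in NSC (adjusted p = 6.78e-05). Over the junction lists, members left out, 20 of 56 tested genes rose and 9 fell, which is 51.8% called, against 39% of all genes. Of 14 tested keratin genes that are not members, 2 rose (Krt42 and Krt17) and 1 fell (Krt10). Of 9 tested claudins that are not members none rose and 2 fell: Cldn12, at 11.1 to 11.4 FPKM in NSC-CiPSC lines and 27.0 FPKM in NSC (adjusted p = 0.00236), and the entry the files call Cldn25, whose identifier is Cldnd1 in GENCODE M21, at 18.6 to 20.9 FPKM in NSC-CiPSC lines and 86.5 FPKM in NSC (adjusted p = 0.000321).

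On the intestinal route, the keratin pair was lower in the lines than in the source library and 2 claudins were higher. Of the 8 members 2 rose (Cldn4 and Cldn6) and 3 fell (Krt7, Krt8 and Krt18), against 45.3% of all genes called, 19.1% higher and 26.2% lower. The median difference was -1.22 for the members and -0.03 for all genes. Krt8 fell by 3.47 ± 0.50 on the log2(FPKM + 1) scale (SE; limma adjusted p = 0.00572), Krt18 fell by 3.19 ± 0.53 (adjusted p = 0.00894) and Krt7 fell by 4.91 ± 0.51 (adjusted p = 0.00228), each lower in 2 of 2 lines. Cldn4 rose by 3.50 ± 0.25 (adjusted p = 0.000724) and Cldn6 by 2.05 ± 0.22 (adjusted p = 0.00244), each higher in 2 of 2 lines. Krt19 (-1.89, adjusted p = 0.0546), Cldn3 (0.97, adjusted p = 0.156) and Cldn7 (-0.54, adjusted p = 0.324) were not called, and Krt19 passed the threshold in 8 of 15 alternative fits. The IEC library is the one with mesothelium, liver, pancreas and muscle markers, and the part of these cells in the falls was not tested.

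Keratins of other epithelia marked the IEC library as well. Of the 14 other keratin genes tested, 12 fell and 1 rose on this route, but 11 of the 12 reached FPKM 1 in IEC alone, so they entered the test through the library where they are high and their count is no support for a fall. Krt13, a keratin of stratified epithelium, was at 0.338 and 0.129 FPKM in IEC-CiPSC lines 10 and 13 and 99.4 FPKM in IEC (limma adjusted p = 2.75e-05). Krt5 and Krt6a, keratins of the basal and the activated layers, were listed at 0 in both IEC-CiPSC lines, against 31.6 and 31.0 FPKM in IEC. The simple keratins not on the list, Krt20, Krt23 and Krt80, are among those 11, as are Krt13, Krt5 and Krt6a. Krt42, a type I keratin, was listed at 0 in both source libraries and was the leading keratin of the IEC-CiPSC lines, with 7.05 to 10.3 FPKM in NSC-CiPSC lines, 14.6 and 19.3 FPKM in IEC-CiPSC lines and 8.73 FPKM in ESC. Among the other claudins 3 rose and 5 fell of 9 tested. Of the 5 that fell, Cldn18, Cldn15, Cldn1 and Cldn2 (differences of -3.82, -3.65, -3.56 and -1.94) also reached FPKM 1 in IEC alone, so their falls were fixed by the filter. The remaining fall was that of the entry called Cldn25 (-1.12, limma adjusted p = 0.00121), whose identifier is that of Cldnd1. Of 56 genes of the junction lists 12 rose and 16 fell, 6 of the 16 with FPKM 1 in IEC alone, with Cdh1 higher by 2.36 (adjusted p = 0.000563) and Cdh3, which encodes P-cadherin, lower by 3.35 (difference -3.35, adjusted p = 0.000363). Of 13 epithelial regulators 5 rose and 3 fell. The largest rises were in Elf3, Tfap2c, Klf5 and Grhl3 (5.03, 4.56, 2.85 and 2.58), and the falls were in Hnf4a (-2.26), Ehf (-1.64) and Esrp1 (-1.11), of which Ehf reached FPKM 1 in IEC alone. The calls of Elf3 and Grhl3 were each lost in 2 of 5 fits that left out 1 line, with limma adjusted p up to 0.0846 for Elf3 and 0.0646 for Grhl3.

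**Figure D3:**
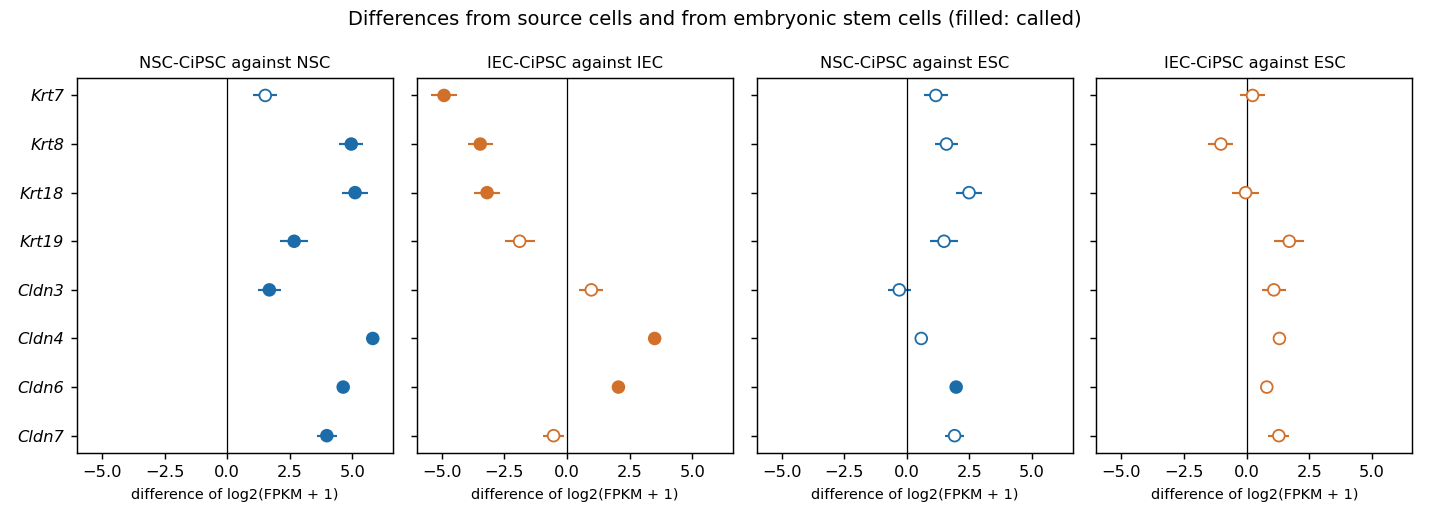
Difference of log2(FPKM + 1) with its standard error for the 8 members in 4 comparisons, filled where called by limma. On the neural route (left) 7 symbols are filled to the right of 0; on the intestinal route Krt7, Krt8 and Krt18 are filled on the left and Cldn4 and Cldn6 on the right; against ESC the filled symbol is Cldn6 in NSC-CiPSC.

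Against ESC, few members passed the test. Both comparisons share the single ESC library. In the fits that left out 1 line, that line could be of the other origin, which changes the shared estimate of the spread and not the difference. In NSC-CiPSC 1 of 8 members was called, Cldn6, higher by 1.97 ± 0.21 on the log2(FPKM + 1) scale and in 3 of 3 lines (SE; limma adjusted p = 0.0268), against 2.8% of all genes called (0.942% higher). That call was lost in 4 of 5 fits that left out 1 line, with adjusted p up to 0.129. The values that missed it were 2.48 for Krt18 (adjusted p = 0.0897), 1.91 for Cldn7 (0.0918 as adjusted p), 1.58 for Krt8 (adjusted p = 0.166), 1.48 for Krt19, 1.16 for Krt7, 0.57 for Cldn4 and -0.30 for Cldn3. In IEC-CiPSC none of 8 was called by limma, against 3.37% of all genes called (1.64% higher). In that comparison 4 of 8 members had an unadjusted limma p under 0.05, beside 24.1% of all genes. Cldn4 came nearest (1.31 ± 0.25, adjusted p = 0.0732), ahead of Cldn6 (0.80, adjusted p = 0.136), while Krt8 differed by -1.03 (adjusted p = 0.306) and Krt18 by -0.04 (adjusted p = 1). The median over members was 1.53 in NSC-CiPSC and 0.94 in IEC-CiPSC, beside 0.02 and 0 over all genes.

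Whether junction genes followed the keratin pair was read from genes outside the list, which were tested between the origins. Of 56 tested junction genes 4 were higher in NSC-CiPSC than in IEC-CiPSC and 1 lower, which is 8.9% called, against 4.33% of all genes. Lsr, the angulin of tricellular junctions, had 17.0, 15.4 and 14.0 FPKM in NSC-CiPSC lines 1, 2 and 3, against 5.81 and 4.28 FPKM in IEC-CiPSC lines 10 and 13 (difference 1.45 ± 0.16, limma adjusted p = 0.0219). Marveld2, whose product tricellulin sits at the same contacts, had 3.07, 3.76 and 3.34 FPKM in NSC-CiPSC lines 1, 2 and 3, against 0.928 and 1.00 FPKM in IEC-CiPSC lines 10 and 13 (1.16 ± 0.10, adjusted p = 0.0138). Ildr1, another angulin, ran the other way, with 3.80, 6.45 and 7.22 FPKM in NSC-CiPSC lines 1, 2 and 3, against 23.0 and 20.9 FPKM in IEC-CiPSC lines 10 and 13 (-1.78 ± 0.28, adjusted p = 0.0389). So of the genes for tricellular contacts Lsr and Marveld2 were higher and Ildr1 lower, and ESC had 8.65 FPKM of Lsr, 1.26 FPKM of Marveld2 and 16.2 FPKM of Ildr1.

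The other junction calls were Cgnl1, a scaffold protein gene of tight junctions, with 4.17 to 5.63 FPKM in NSC-CiPSC lines and 0.822 and 0.885 FPKM in IEC-CiPSC lines (1.65 ± 0.14, adjusted p = 0.0149), and Cdh3, with 5.26 to 5.99 FPKM in NSC-CiPSC lines and 1.53 and 2.09 FPKM in IEC-CiPSC lines (1.25 ± 0.14, adjusted p = 0.021). Cgn and Pard6b, genes of tight junction and polarity proteins, passed the adjusted p but not the fold, as did Dsg2, Evpl and Pkp2 of the desmosome list (difference 0.70, adjusted p = 0.0304 for Cgn and 0.73, adjusted p = 0.032 for Pard6b). Of the 56 junction genes 25 had an unadjusted p under 0.05, beside 28.7% of all genes. Epcam, Cdh1 and Tjp1 were not called. Epcam averaged 64.6 ± 4.05 FPKM in NSC-CiPSC (SD, n = 3) and 63.9 ± 0.359 FPKM in IEC-CiPSC (SD, n = 2; limma adjusted p = 0.936), Tjp1 24.4 ± 1.23 FPKM in NSC-CiPSC and 22.8 ± 0.354 FPKM in IEC-CiPSC (adjusted p = 0.437), and Cdh1 79.3 ± 8.59 FPKM in NSC-CiPSC and 65.4 ± 2.82 FPKM in IEC-CiPSC (adjusted p = 0.218). The median difference was 0.19 over the 56 junction genes and 0.03 over all genes. None of 14 other keratins was called by limma, with 4 at an unadjusted p under 0.05.

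Genes that regulate epithelial identity and other filament genes also differed in part. Esrp1, an epithelial splicing regulator, had 6.35, 4.09 and 3.97 FPKM in NSC-CiPSC lines 1, 2 and 3, against 0.754 and 0.678 FPKM in IEC-CiPSC lines 10 and 13 (1.73 ± 0.21, limma adjusted p = 0.0255). Gata3, a transcription factor of trophectoderm and several epithelia, was lower, with 1.26, 0.712 and 0.568 FPKM in NSC-CiPSC lines 1, 2 and 3, against 3.69 and 2.90 FPKM in IEC-CiPSC lines 10 and 13 (-1.23 ± 0.20, adjusted p = 0.042). Des and Prph, genes of type III intermediate filaments, were higher in NSC-CiPSC (1.26 ± 0.21, adjusted p = 0.0442, and 1.22 ± 0.14, adjusted p = 0.0228), and Nefm, a neurofilament gene, was lower (-1.05 ± 0.14, adjusted p = 0.0305). Vim, which encodes vimentin, was not called (84.1 ± 23.7 FPKM in NSC-CiPSC and 85.7 ± 3.93 FPKM in IEC-CiPSC, adjusted p = 0.918). Each of these calls and of the 5 junction calls was lost in 3 to 5 of 5 fits that left out 1 line, with adjusted p up to 0.238. The summed level of 8 mesothelium markers moved with origin, at 7.52 to 10.1 FPKM in NSC-CiPSC lines and 43.8 and 49.4 FPKM in IEC-CiPSC lines, mainly Msln and Podxl. Wt1, Lrrn4, Rspo1 and Gpm6a ran the other way. Wt1 was at 0.345 to 1.91 FPKM in NSC-CiPSC lines and at 0.130 and 0.249 FPKM in IEC-CiPSC lines. The sum of 10 fibroblast and mesenchyme markers moved the same way as the mesothelium sum. It was 8.70 to 10.9 FPKM in NSC-CiPSC lines and 36.5 and 40.1 FPKM in IEC-CiPSC lines. Col1a1 was at 1.80 to 3.47 FPKM in NSC-CiPSC lines and 16.7 and 17.0 FPKM in IEC-CiPSC lines, while Pdgfra and Fbn1 ran the other way. Of 8 pluripotency markers 7 were lower in every NSC-CiPSC line than in both IEC-CiPSC lines, the exception being Zfp42, which overlapped. Of 8 neural stem cell markers 7 were higher in every NSC-CiPSC line. The sum of all 8 was 18.9 to 29.9 FPKM in NSC-CiPSC lines and 14.3 and 15.0 FPKM in IEC-CiPSC lines. The exception, Olig2, was at 3.649 to 11.1 FPKM in NSC-CiPSC lines and 7.479 and 8.659 FPKM in IEC-CiPSC lines. Some gaps were small, as for Fabp7 (0.3199 FPKM in NSC-CiPSC line 3, 0.3155 FPKM in IEC-CiPSC line 10). How often all genes separate in this way was not counted, so nothing is read from these counts. The sum of 7 pancreas markers was 1.64 to 1.92 FPKM in NSC-CiPSC lines and 0.105 and 0.128 FPKM in IEC-CiPSC lines. It was mainly Cela1, at 1.302, 1.919 and 1.701 FPKM in NSC-CiPSC lines 1, 2 and 3 and 0.105 FPKM in both IEC-CiPSC lines. Ins1, Ins2, Cpa1 and Prss1 were listed at 0 in every line. Cela1 in NSC and ESC was also above both IEC-CiPSC lines, so no shift of the marker set is read from the sum. The sums of intestinal epithelium, smooth muscle, leukocyte and liver markers overlapped, but a sum can hide single markers. Among the smooth muscle markers, Acta2 was at 11.3 to 23.0 FPKM in NSC-CiPSC lines and 27.2 and 34.3 FPKM in IEC-CiPSC lines. Actg2 and Myh11 were also lower in every NSC-CiPSC line, while Des was higher in every NSC-CiPSC line. The part of such cells in the differences was not tested.

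**Figure D4:**
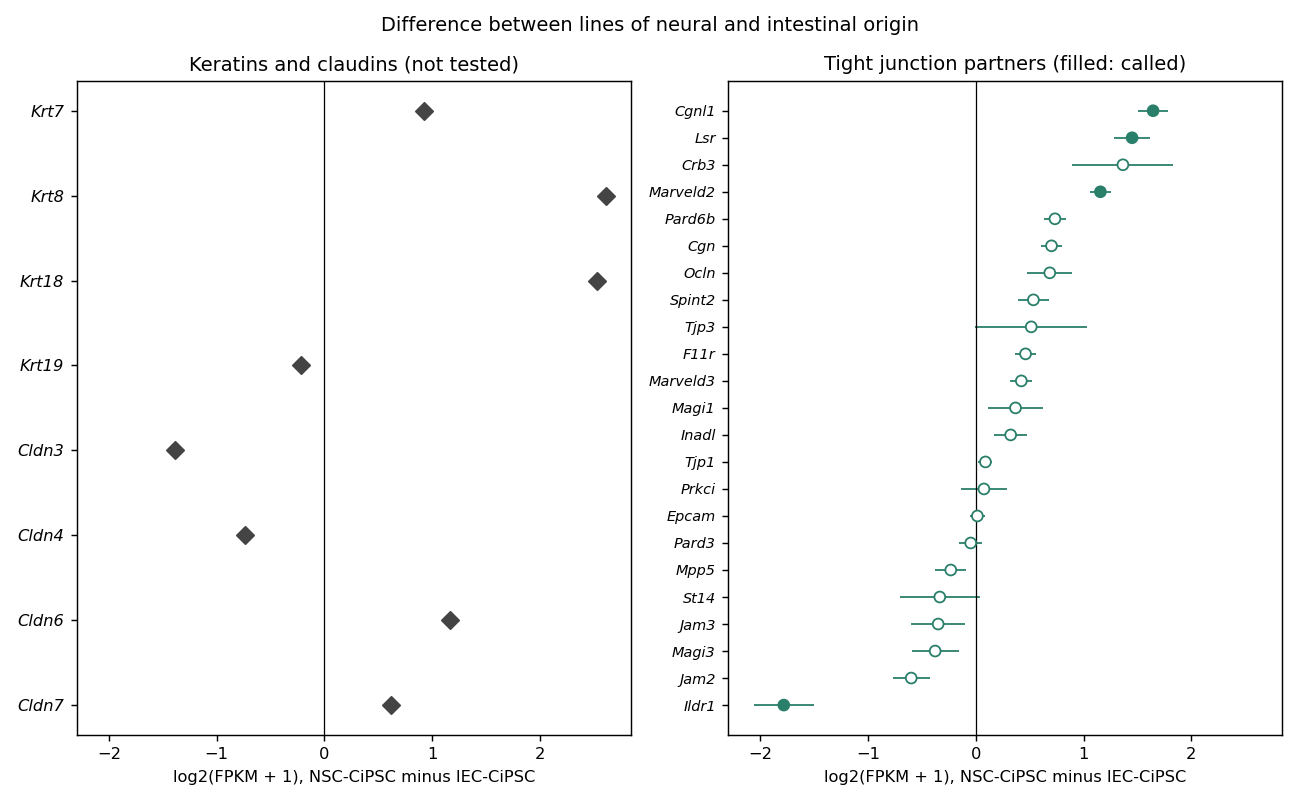
Difference of log2(FPKM + 1) between NSC-CiPSC and IEC-CiPSC lines for the 8 members (left, values with no test) and for 23 of 24 tight junction partner genes (right, with standard error, filled where called by limma). Krt8 (2.61) and Krt18 (2.53) lie beyond every tight junction gene shown on the right, the claudins fall on both sides of 0, and Cgnl1, Lsr and Marveld2 are filled on the right and Ildr1 on the left.

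Profiles over all 8 libraries were compared by Pearson's r of log2(FPKM + 1), as a description over samples that share groups. The genes most like the mean of Krt8 and Krt18 were Unc45a (0.979), Plac9a (0.977), Plac9b (0.976), Eno3 (0.954) and Lsr (0.948). Plac9a and Plac9b are near-identical copies whose reads may have been split. Plac9a had 34.2, 24.7 and 22.9 FPKM in NSC-CiPSC lines 1, 2 and 3, 8.56 and 8.18 FPKM in IEC-CiPSC lines 10 and 13, 0.419 FPKM in NSC, 66.9 FPKM in IEC and 6.28 FPKM in ESC. Its line 1 was the highest of the lines, as for Krt8 and Krt18. The genes most like the mean of the 4 claudins were Dvl2 (0.997), Zfp655 (0.995), Ankrd27 (0.993), Rplp1 (0.992) and Rps21 (0.991). Dvl2, a Wnt signalling gene that lies 32709 bases from Cldn7, had 35.8, 42.7 and 43.0 FPKM in NSC-CiPSC lines 1, 2 and 3, 41.7 and 37.1 FPKM in IEC-CiPSC lines 10 and 13, 8.85 FPKM in NSC, 23.6 FPKM in IEC and 27.5 FPKM in ESC. The claudin profile is dominated by the gap between NSC and the other libraries. The profile of Krt8 and Krt18 holds that gap and also the gap between the origins, on which the list was chosen.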

How the data were processed

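Total RNA of 8 libraries was sequenced; per the labels the RNeasy Plus Mini Kit was used for extraction and NEBNext Ultra for library construction, strand not stated. The authors deposited FPKM per gene with a status and a 95% interval. The submitters' processing notes name TopHat, Cufflinks and the build mm10; versions and annotation release are not given in the sources used here. FPKM were used as deposited. Fragments per value and depth were inferred from the width of the interval. Entries on other scaffolds (255) or not marked OK in every library (447) were left out. Genes that reached FPKM 1 in any library were tested on log2(FPKM + 1), which understates changes of low genes, with limma 3.58.1 in R 4.3.3 (1 mean for each of 5 groups, trend, 3 residual and 1.1 prior degrees of freedom) and Benjamini-Hochberg adjustment over 16989 genes. NSC, IEC and ESC have 1 library each and were assumed to vary like the lines. The procedure was tested on simulated data. The 8 genes and all gene lists were chosen with earlier results of these data known; members were not tested between the origins. Junction lists pool other claudins, tight junction partners, adherens junction and desmosome genes. Named genes are the members, up to 4 called genes per list and comparison with the largest change, the 5 closest profiles (FPKM of at least 10 in a library, members and unnamed genes left out), neighbours within 50 kb, Epcam and Cdh1; F11r is among the first 4, while Tjp1, Vim, genes that missed only the fold, the falls among regulators and the marker genes were chosen after their values were seen. A tight junction gene counted in its list is not reported here by name. Sequences came from RefSeq promoters of GRCm38.p6. Tables were handled in Python 3.11.15 with NumPy 2.4.6 and pandas 2.3.3, and plots drawn in matplotlib 3.10.9. Alternatives were other pseudocounts, filters and scalings, no trend, pairwise fits, marked entries kept, genes outside X and Y, and leaving out each line. Each line was left out for every comparison, also where it is in neither group. Leaving out such a line changes the shared estimate of the spread and not the difference.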

Additional observations from a re-analysis of the deposited data

Results flagged for a closer look

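For several genes the difference from the source cells had opposite signs on the 2 routes, with every NSC-CiPSC line on one side of NSC and every IEC-CiPSC line on the other side of IEC. The difference between the 2 changes was not tested, and each route has 1 source library. Among the members the neural change minus the intestinal change on the log2(FPKM + 1) scale was 8.42 for Krt8 (4.95 on the neural and -3.47 on the intestinal route), 8.30 for Krt18, 6.43 for Krt7, 4.57 for Krt19 and 4.51 for Cldn7 (3.98 and -0.54). Of these members only Krt8 and Krt18 were called by limma on both routes: Krt7 was not called on the neural route (adjusted p = 0.0585), nor Krt19 (adjusted p = 0.0546) and Cldn7 (adjusted p = 0.324) on the intestinal route. Among genes of the lists, only up to 4 called genes per list and comparison with the largest change were searched. Outside that search, Dsp of the desmosome list was also called in opposite directions. Its difference was 1.43 on the neural route (limma adjusted p = 0.00878) and -1.10 on the intestinal route (adjusted p = 0.0201). Among the genes searched, each called on both routes, the neural minus the intestinal change was 7.69 for Des, 6.08 for Cdh3, 5.19 for Lsr and 5.02 for Cgnl1. It was 4.67 for Krt17, 4.36 for Prph and 3.62 for Esrp1. Jam2, a junctional adhesion molecule gene, ran the other way at -4.95, with 62.0 to 85.9 FPKM in NSC-CiPSC lines and 163 FPKM in NSC, and 119 and 115 FPKM in IEC-CiPSC lines and 7.08 FPKM in IEC.

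Krt8 was above ESC in each NSC-CiPSC line (1.58) and below it in both IEC-CiPSC lines (-1.03). The 2 differences share the ESC library and are 2.61 apart, which is the difference between the origins itself; it was not tested, because the list was chosen on it.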

How the results depend on the processing

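The members called on the neural route numbered 5 to 8 and on the intestinal route 5 to 7 over the alternatives, against 7 and 5 in the text. Krt8, Krt18, Cldn4, Cldn6 and Cldn7 on the neural route, and Krt7, Krt8, Krt18, Cldn4 and Cldn6 on the intestinal route, kept their direction and call in all 15 alternatives. The number of members higher in NSC-CiPSC than in IEC-CiPSC was 5 to 6, the sixth being Krt19. With log2(FPKM + 5) the genes called were 4107 on the neural route, 4778 on the intestinal route, 256 and 325 against ESC in NSC-CiPSC and IEC-CiPSC, and 325 between the origins, against 6629, 7704, 476, 572 and 735. In fits of only the 2 groups compared, 202 genes and 0 members were called in NSC-CiPSC against ESC (Cldn6 adjusted p = 0.0926) and 123 genes in IEC-CiPSC against ESC. When FPKM 1 had to be reached in 2 libraries or more, 1 member, Cldn4, was called in IEC-CiPSC against ESC (limma adjusted p = 0.0448). Leaving out 1 line gave 5966 to 6861 genes and 5 to 7 members on the neural route, 6558 to 8001 genes and 5 to 6 members on the intestinal route, 190 to 725 genes and 0 to 1 member in NSC-CiPSC against ESC, 154 to 896 genes and 0 to 1 member in IEC-CiPSC against ESC, and 98 to 795 genes between the origins. Leaving out 1 line, the Cldn3 difference of NSC-CiPSC from ESC ran between -0.52 and 0.0011 (without line 1), and the Krt18 difference of IEC-CiPSC from ESC between -0.30 and 0.21 (without line 13); neither was called, and the cause was not tested. On the intestinal route the median of all genes shifted from -0.03 to 0.15 with quantile normalization, -0.15 with median ratio scaling and -0.18 after rescaling without mitochondrial and selenoprotein genes, and the split of calls from 3251 higher and 4453 lower to 4078 and 3676 with quantile normalization; on the neural route rescaling moved it from 3103 and 3526 to 2499 and 4277. No paired analysis was possible because the replicate numbers are line numbers that the groups do not share. Krt7 and Cldn7 rest on few fragments, 1 library per source limits both routes, and counting intervals cover error within a library alone.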

Other observations

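Msln and Podxl, genes of cell surface proteins known from mesothelium, were higher in IEC-CiPSC lines. Wt1, Lrrn4, Rspo1 and Gpm6a of the same list ran the other way, at low levels in the lines of both origins. Msln had 0.660, 0.674 and 0.896 FPKM in NSC-CiPSC lines 1, 2 and 3, 27.2 and 21.9 FPKM in IEC-CiPSC lines 10 and 13, 62.4 FPKM in IEC and 1.17 FPKM in ESC, and was listed at 0 in NSC. Podxl had 3.42, 4.61 and 3.68 FPKM in NSC-CiPSC lines 1, 2 and 3, 19.6 and 19.0 FPKM in IEC-CiPSC lines 10 and 13, 1.23 FPKM in NSC, 17.1 FPKM in IEC and 4.26 FPKM in ESC. Upk3b, a defining marker of the same tissue, was also higher in the IEC-CiPSC lines but stayed low. It was at 0.222 to 0.601 FPKM in NSC-CiPSC lines and 0.698 and 0.745 FPKM in IEC-CiPSC lines, against 86.5 FPKM in IEC. These mesothelium genes were chosen after their values were seen and are given as values with no test.

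Elf3, an epithelial transcription factor gene, varied widely among lines of neural origin, with 12.5, 72.9 and 52.3 FPKM in NSC-CiPSC lines 1, 2 and 3, against 132 and 113 FPKM in IEC-CiPSC lines 10 and 13, 2.77 FPKM in IEC and 33.0 FPKM in ESC. Line 1 was the lowest NSC-CiPSC line for Elf3, as for Krt19, Cldn3, Cldn4, Cldn6 and Cldn7, and the highest for Krt8 and Krt18. Elf3 was chosen after its values were seen. The difference between the origins was -1.71 and was not called (limma adjusted p = 0.272).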
